A study of Mus musculus with 17 samples.

Results

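The T cell receptor complex and its partner molecules were followed in mouse mammary tumours and normal mammary tissue through 10 genes. These were Cd3d, Cd3e, Cd3g and Cd247, which encode the signalling chains of the complex, the coreceptor genes Cd4, Cd8a and Cd8b1, the kinase gene Lck, the costimulatory receptor gene Cd28 and the receptor gene Cd5. The genes were chosen by name, and each was read from the probe set that carried its symbol alone. Of the 10 genes 9 were measured, among 19938 genes on the array. Lck had no probe set of its own in the annotation used and was not analysed here.

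The T cell receptor recognises peptide held by major histocompatibility molecules but has almost no signalling tail of its own. The CD3 gamma, delta and epsilon chains and the CD247 zeta chain carry the signal into the cell, where LCK, brought in by the CD4 or CD8 coreceptor, phosphorylates them. T cells in the mammary gland lie between epithelial cells, in the stroma and in the lymph node embedded in the mammary fat pad, and T cells also enter mammary tumours. CD8 is an alpha and beta chain pair on cytotoxic T cells, and the alpha chain is also found on some dendritic cells.

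The strain background was mixed throughout. Per the labels, Rb/p53 tumours had lost Rb1 and Trp53. Of these, 7 were labelled as transplants: 5 (replicates 1 to 5) carried Cre recombinase under the promoter of mouse mammary tumour virus (MMTV-Cre), and 2 (replicates 6 and 7) received it from an adenovirus (Ad-CMVcre). A further 2 Rb/p53 tumours, both MMTV-Cre, were not labelled as transplants and came from a nulliparous (replicate 1) and a parous (replicate 2) model. The 3 p53 tumours were MMTV-Cre and deleted for p53, and the 5 controls were normal mammary tissue of Rbp53 mice. For age and for the transplant hosts, including which lymphocytes a host had, the sources used here give nothing. That promoter is active mainly in mammary epithelium, and in some lines in lymphoid cells as well. The labels describe the tumours as independent. The p53 replicate 3 array carried a title naming the Rb/p53 model, while its source name, description and tissue named p53 deletion, and it was kept with the p53 tumours.

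Each of the 17 samples was hybridised to 1 Affymetrix Mouse Gene 1.0 ST array, and all values are log2 intensities. As a measure of background, the 95th percentile of 1190 olfactory and vomeronasal receptor genes, which are silent in most tissues, was taken on each array. It lay between 6.85 and 7.94, and the highest value belonged to p53 replicate 2. That array stood apart in other ways over all probe sets. Its correlation with the others was 0.888 to 0.915, against 0.929 to 0.993 among the rest. Its interquartile range was 2.39 against 2.91 to 3.18. Calls on the T cell genes in comparisons with the p53 tumours are therefore also given without that array. For other genes and lists this was done for part of the values only. A value printed once can therefore still depend on it. Rb1 itself was lower than in normal tissue, with a log2 difference of -1.63 ± 0.17 (SE) in the transplants, -1.84 ± 0.25 in the other Rb/p53 tumours and -0.81 ± 0.21 in the p53 tumours (limma adjusted p = 3.56e-06, 1.15e-04 and 0.0140). Markers of other tissue parts moved too: 7 of 7 measured adipocyte markers were lower in each tumour group than in normal tissue, and so were 6 of 8 mammary epithelium markers in transplants, 3 of 8 in the other Rb/p53 tumours and 6 of 8 in p53 tumours. Their part in the results below was not tested.

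The genes for CD3 gamma, delta and epsilon lie beside each other on mouse chromosome 9, and these 3 promoters are shown because the 3 genes were all lower in the transplants than in normal tissue. Each window spans 300 bases, 250 before and 50 after the RefSeq transcription start (GRCm38.p6), and reads 5′ to 3′ along the gene. Cd3g is at chr9:44980382-44980681 on the minus strand, Cd3d at chr9:44981536-44981835 on the plus strand and Cd3e at chr9:45009562-45009861 on the minus strand. Capitals mark matches, on either strand, to 6 short motifs, those of 5 families of transcription factors known from T cells and the TATA box of basal promoters. The motif of the RUNX family was searched as TGTGGT. For the ETS family, to which ETS1 of lymphocytes belongs, the letters were AGGAAG. Factors of the E protein family bind the E-box, searched as CAGNTG with N for any base. The TCF and LEF family was searched with the letters CTTTGA. For the family of GATA3 the letters were AGATAA, and the TATA box was searched under the letters TATAAA. No 2 motifs overlapped in these 3 windows.
Cd3g: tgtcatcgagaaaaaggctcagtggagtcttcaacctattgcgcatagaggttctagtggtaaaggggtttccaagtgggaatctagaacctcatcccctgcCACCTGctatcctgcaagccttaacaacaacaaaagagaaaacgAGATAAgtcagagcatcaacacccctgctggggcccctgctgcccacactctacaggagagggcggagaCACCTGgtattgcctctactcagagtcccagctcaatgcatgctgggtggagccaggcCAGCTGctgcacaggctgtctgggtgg
Cd3d: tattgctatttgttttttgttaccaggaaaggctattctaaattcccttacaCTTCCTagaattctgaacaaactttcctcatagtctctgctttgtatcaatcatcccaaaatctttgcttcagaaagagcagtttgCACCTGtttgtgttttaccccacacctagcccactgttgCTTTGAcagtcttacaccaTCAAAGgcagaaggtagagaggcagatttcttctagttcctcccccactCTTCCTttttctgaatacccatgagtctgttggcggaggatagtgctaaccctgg
Cd3e: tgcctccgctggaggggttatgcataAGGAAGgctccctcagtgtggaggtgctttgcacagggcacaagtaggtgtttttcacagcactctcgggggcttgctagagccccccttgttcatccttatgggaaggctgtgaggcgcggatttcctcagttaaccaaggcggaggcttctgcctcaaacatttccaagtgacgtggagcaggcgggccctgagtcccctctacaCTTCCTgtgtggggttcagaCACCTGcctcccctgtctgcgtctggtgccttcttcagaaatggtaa
The Cd3g window held 3 E-box matches and 1 GATA match. The Cd3d window held 2 ETS, 1 E-box and 2 TCF/LEF matches, and the Cd3e window 2 ETS matches and 1 E-box. None of the 3 windows held a TATA box or RUNX match. Windows were at hand for 6 of the 9 measured genes, and each of the 6 held an E-box match. Matches of this kind are common: of 32851 RefSeq promoter windows 51.4% held the E-box letters, 35.4% ETS, 16.8% RUNX, 16.0% TCF/LEF, 13.6% TATA and 11.2% GATA.

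Cd3g, encoding the CD3 gamma chain, showed the widest separation between groups. In the transplants its level was 6.21 at the lowest, 6.43 at the median and 6.95 at the highest. The other 2 Rb/p53 tumours stood at 7.57 and 7.88, the p53 tumours at 7.66, 10.19 and 8.36 (replicates 1 to 3) and normal tissue at 8.76, 8.68, 8.67, 9.20 and 8.86. All 7 transplants lay below each of the other 10 arrays, and 0 of 7 rose above the receptor-gene background of its own array, whereas all 10 other arrays did. The 2 non-transplanted Rb/p53 tumours lay between the transplants and the normal tissue without touching either. The group means ran from 8.83 ± 0.22 (SD, n = 5) in normal tissue through 8.73 ± 1.31 (n = 3) in p53 tumours and 7.72 ± 0.22 (n = 2) in non-transplanted Rb/p53 tumours to 6.50 ± 0.26 (n = 7) in transplants. The first 2 in this order overlapped, and the p53 range also reached below the higher of the 2 non-transplanted tumours.

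Cd3e, encoding the epsilon chain that pairs with both gamma and delta, kept the same order on a smaller scale. The transplants had 7.53 at the lowest, 7.59 at the median and 7.78 at the highest. Values were 8.28 and 8.23 in the non-transplanted Rb/p53 tumours, 8.16, 9.26 and 8.53 in p53 tumours and 8.72, 8.55, 8.39, 8.90 and 8.95 in normal tissue. Every array was above its receptor-gene background, and all 7 transplants again lay below each of the other 10. Mean levels were 8.70 ± 0.24 in normal tissue, 8.65 ± 0.56 in p53 tumours, 8.26 ± 0.04 in non-transplanted Rb/p53 tumours and 7.63 ± 0.09 in transplants.

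Cd3d, encoding the delta chain, and Cd247, encoding the zeta chain, were near or under background. Cd3d lay between 5.84 and 6.16 in transplants, at 6.26 and 6.17 in the other Rb/p53 tumours, between 6.25 and 6.60 in p53 tumours and between 6.15 and 6.39 in normal tissue. It exceeded the receptor-gene background on 0 of the 17 arrays. Cd247 ranged from 6.76 to 7.06 in transplants, stood at 7.0 and 6.75 in the other Rb/p53 tumours, ranged from 6.95 to 7.44 in p53 tumours and from 6.87 to 7.08 in normal tissue. It was above background on 1 array, transplant replicate 1, and its groups overlapped. Differences in these genes are therefore read from signals close to the background.

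Among the coreceptor genes, Cd4 did not share the order of Cd3g, Cd3e and Cd3d, in which transplants were lowest and non-transplanted Rb/p53 tumours next. Mean Cd8a and Cd8b1 followed the order of Cd3d, with p53 tumours first and normal tissue after them. Cd4, the coreceptor gene of helper T cells, had 7.29, 7.76 and 9.63 as lowest, median and highest transplant values. It was 7.48 and 7.15 in the other Rb/p53 tumours, 7.52, 7.13 and 7.69 in p53 tumours and 7.90, 7.84, 8.25, 8.46 and 7.88 in normal tissue. The transplants spread widely and overlapped the ranges of the p53 and normal groups: replicates 1, 4 and 7 were at 8.38, 8.42 and 9.63, and the other 4 at 7.29 to 7.76. On replicate 7, the array with the highest Cd4, Cd3g was 6.72 and Cd3e 7.53. Mean Cd4 was 8.09 ± 0.80 in transplants, 8.07 ± 0.28 in normal tissue, 7.44 ± 0.29 in p53 tumours and 7.31 ± 0.23 in non-transplanted Rb/p53 tumours.

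Cd8a, encoding the CD8 alpha chain, was highest in p53 tumours, at 7.58, 8.21 and 7.69. Normal tissue had 7.32, 7.11, 7.19, 7.13 and 7.13, the non-transplanted Rb/p53 tumours 7.07 and 7.15, and the transplants 6.72, 6.89 and 7.0 as lowest, median and highest. The p53 tumours lay above all other arrays and the transplants below all others, and 0 of 7 transplants passed the receptor-gene background against 10 of the other 10. Some of these margins were small. Non-transplanted replicate 1 was at 7.07 against a background of 7.04, and normal replicates 4 and 5 at 7.13 against 7.08 and 7.07. Transplant replicate 3, the highest transplant, was at 7.0 against 7.12. Cd8b1, encoding the beta chain and so closer to cytotoxic T cells, was at 7.33, 7.85 and 7.04 in p53 tumours and between 6.89 and 7.14 in normal tissue. It was at 6.74 and 6.93 in the non-transplanted Rb/p53 tumours and between 6.63 and 6.81 in transplants. It passed background on 2 of 3 p53 arrays, 1 of 5 normal arrays and 0 of the 9 Rb/p53 arrays.

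Cd28, whose product gives the costimulatory signal, passed background on 0 of the 17 arrays and ranged from 6.34 to 6.89 in transplants and from 6.48 to 7.11 in normal tissue. It stood at 6.73 and 6.66 in the other Rb/p53 tumours and from 6.72 to 7.20 in p53 tumours. Cd5, an inhibitory receptor gene of T cells and of a subset of B cells, ranged from 7.33 to 7.51 in transplants, from 7.64 to 7.76 in p53 tumours and from 7.44 to 7.72 in normal tissue. It was 7.61 and 7.30 in the non-transplanted Rb/p53 tumours and above background on every array other than p53 replicate 2. Counting genes per array, 3 or 4 of the 9 were above background on each transplant, 5 on both other Rb/p53 arrays, 3 to 6 on the p53 arrays and 5 or 6 on the normal arrays.

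**Figure D1:**
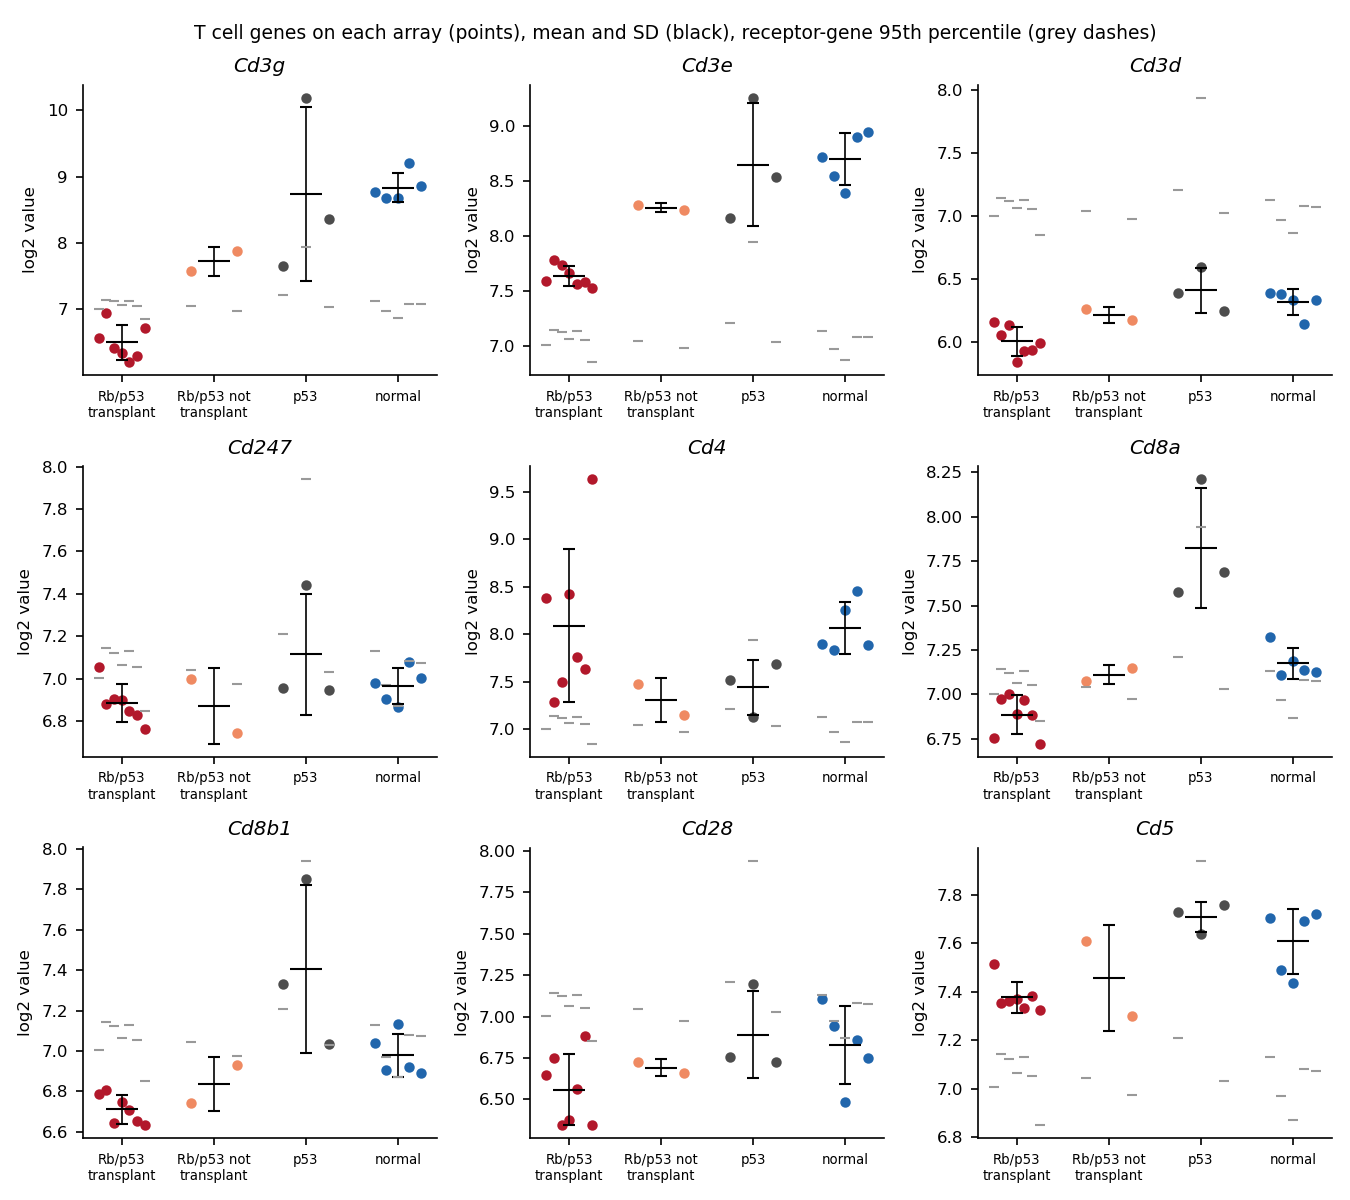
Log2 value (vertical axis, a separate scale for each gene) of the 9 measured T cell genes in the 4 groups, with 1 point per array, the group mean and SD in black and the receptor-gene 95th percentile of each array as a grey dash. The transplants lie below all other arrays for Cd3g (6.21 to 6.95), Cd3e (7.53 to 7.78) and Cd8a (6.72 to 7.0), while Cd4 spreads from 7.29 to 9.63.

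Against normal tissue, 5 of the 9 genes were lower in transplanted Rb/p53 tumours and 0 were higher (limma on all 17 arrays, Benjamini-Hochberg adjusted p below 0.05 over all genes). Over all genes 12.3% were called lower and 12.7% higher, so calls were common in this comparison. Cd3g was at least 3.44-fold lower (measured log2 difference -2.33 ± 0.30, SE, adjusted p = 3.10e-05) and Cd3e 2.10-fold lower (-1.07 ± 0.15, adjusted p = 6.93e-05), both without overlap between the groups. A fold is given as a bound where no array of the lower group passed its receptor-gene background. Each of those arrays then counts at that background or at its own value, whichever is higher. Such a bound compares group means and allows for background only, not for the spread between arrays. The 95% interval of the measured Cd3g difference ran from -2.97 to -1.69 and so reached below the log2 size of the bound, 1.78. Cd3d fell by 0.31 ± 0.08 on the log2 scale (adjusted p = 0.0112), with overlap of 1 normal array. It was under background on every array of both groups, so this difference is read from background signal. The filter on low gene means left Cd3d out. Overlap between groups was examined for the T cell genes only, in this and the other comparisons. No share over all genes can therefore be set beside it. These 3 calls held in every alternative in which the gene was tested, with Cd3g between -2.41 and -2.24, apart from a required log2 difference of at least 1, which Cd3d does not reach. In bulk tissue fewer T cells and less RNA per T cell cannot be told apart.

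Smaller differences were near the threshold. Cd8a was lower in transplants than in normal tissue (-0.29 ± 0.10, limma adjusted p = 0.0438), by at least 1.09-fold and without overlap, and so was Cd5 (-0.23 ± 0.08, adjusted p = 0.0397), with overlap. Both calls were lost with the 5 MMTV-Cre transplants alone (adjusted p = 0.125 and 0.0985) and on leaving out any of several single arrays, such as normal replicate 1 (0.118 and 0.104). Cd8b1 differed by -0.27 ± 0.11 without overlap (adjusted p = 0.0914), Cd28 by -0.27 ± 0.13 (0.147), Cd247 by -0.08 ± 0.09 (0.611) and Cd4 by 0.02 ± 0.31 (0.977). The interval of the Cd4 difference, -0.64 to 0.69, spans changes in both directions. The median difference of the 9 genes was -0.27, beside 0.04 over all genes.

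The 2 Rb/p53 tumours without the transplant label showed 0 of 9 genes called against normal tissue in limma, with 1 at an unadjusted p below 0.05. Over all genes 8.0% were called lower and 5.27% higher at the adjusted threshold. The share of all genes at an unadjusted p below 0.05 was not counted, for this or any later count of that kind. Cd3g differed by -1.11 ± 0.43 (adjusted p = 0.104) and Cd3e by -0.44 ± 0.21 (0.197), both below every normal array. Cd4 differed by -0.75 ± 0.45 (0.311), also without overlap, and the other 6 genes by -0.15 to -0.07 with overlap. The median difference was -0.14, beside 0.0048 over all genes. With a fit on those 7 arrays alone, Cd3g (limma adjusted p = 0.00274) and Cd4 (0.0268) were called. Calls over all genes were also more common in that fit, 2303 of 19938 lower and 2312 higher, against 1596 and 1050 in the main fit.

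Between the 7 transplants and the 2 other Rb/p53 tumours, limma called 0 of 9 genes, with 2 at an unadjusted p below 0.05. Over all genes 0.00502% were called lower, which is 1 gene, and 0.00502% higher. Cd3g was 6.50 against 7.72, a difference of -1.22 ± 0.41 with a 95% interval of -2.10 to -0.34 (adjusted p = 0.626). Cd3e differed by -0.62 ± 0.20, interval -1.06 to -0.19 (adjusted p = 0.608). Both intervals lie below 0 and both genes separated the groups fully, and neither passed the adjustment over all genes. Cd3d (-0.21 ± 0.11) and Cd8a (-0.22 ± 0.14) also did not overlap, while Cd4 differed by 0.78 ± 0.43 in the opposite direction, interval -0.14 to 1.69. How many of all genes separated the 7 and 2 arrays in this way, or had an unadjusted p below 0.05, was not counted. The transplants held both adenovirus tumours and the other tumours none, and Cd3g in the 2 adenovirus tumours, 6.30 and 6.72, lay within the range of the MMTV-Cre transplants, 6.21 to 6.95.

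**Figure D2:**
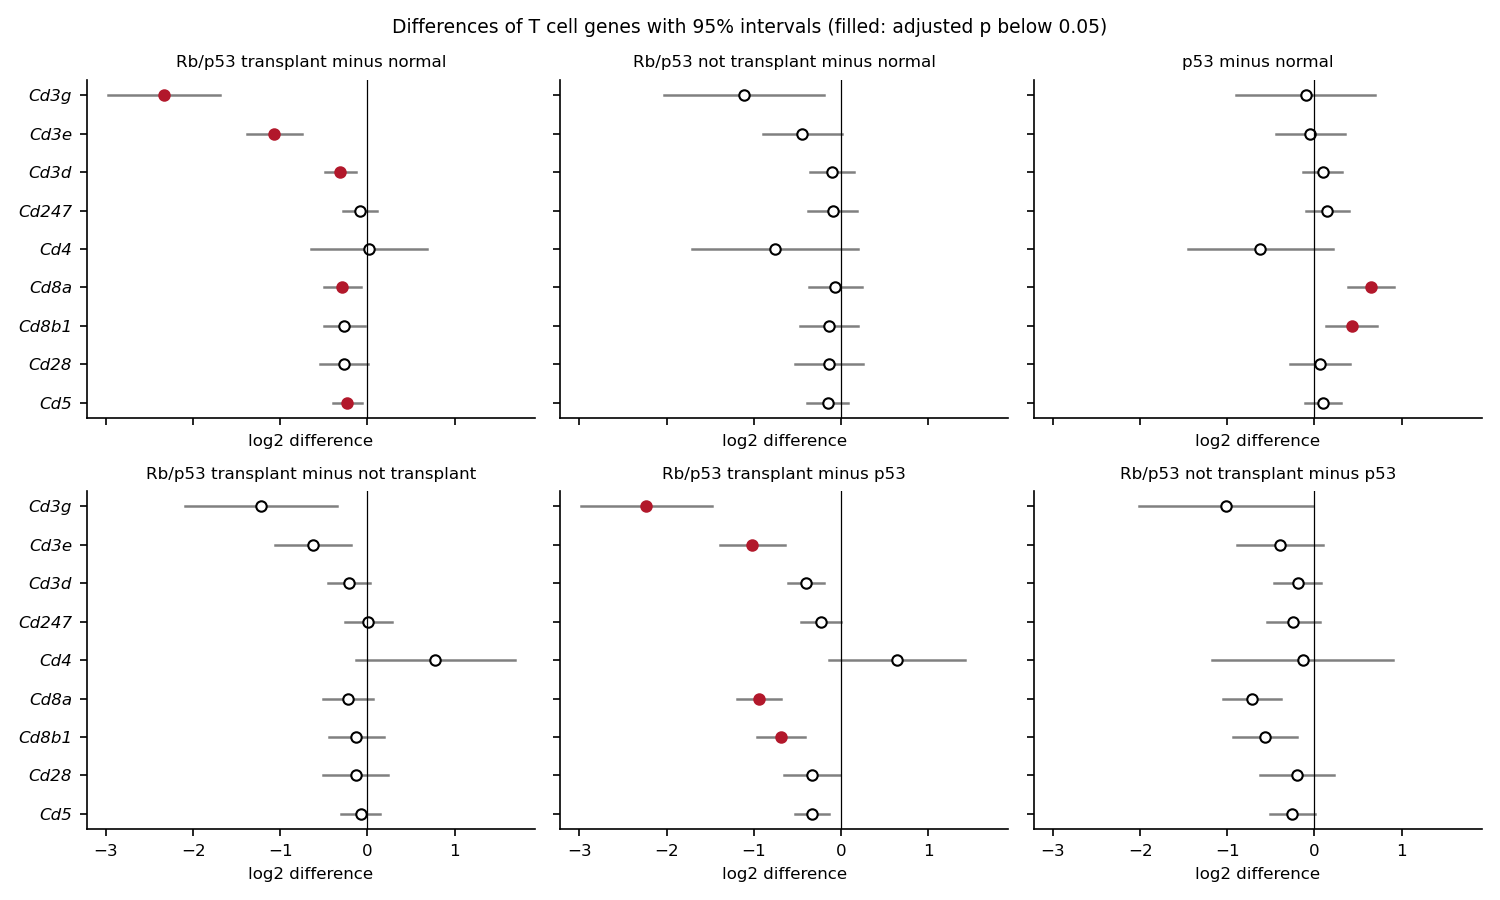
Log2 difference between group means (horizontal axis) for the 9 genes in each of the 6 comparisons, with 95% intervals as grey bars and filled red points where the limma adjusted p was below 0.05. Cd3g and Cd3e lie to the left in each comparison that involves the transplants, at -2.33 and -1.07 against normal tissue, and Cd8a lies to the right in p53 tumours against normal tissue, at 0.65.

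In p53 tumours against normal tissue 2 of 9 genes were higher and 0 lower, beside 7.76% of all genes called higher and 12.0% called lower. Cd8a was 1.57-fold higher (0.65 ± 0.12, limma adjusted p = 0.0016) without overlap, and Cd8b1 was higher by 0.43 ± 0.14 (adjusted p = 0.0394) with overlap. Without p53 replicate 2, Cd8a was still higher by 0.46 (adjusted p = 0.00345), whereas the Cd8b1 difference was 0.20 (0.182) and no longer called. With replicate 3 also moved to the non-transplanted Rb/p53 tumours, which left p53 replicate 1 alone, the Cd8a difference was 0.4. The CD3 genes depended on p53 replicate 2 as well. With it Cd3g differed from normal tissue by -0.10 ± 0.38 (adjusted p = 0.869) and Cd3e by -0.05 ± 0.19 (0.864); without it Cd3g fell by 0.83 (adjusted p = 0.0134) and Cd3e differed by -0.36 (0.0963). Cd4 differed by -0.62 ± 0.39 (0.267), with all 3 p53 tumours below all 5 normal samples, and by -0.46 without p53 replicate 2 (0.549). The median difference of the 9 genes, 0.09, was that of all genes (0.09).

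Against p53 tumours, the transplants were lower in 4 of 9 genes and higher in 0, beside 0.451% of all genes called lower and 1.00% called higher. Cd3g was at least 3.21-fold lower (measured log2 difference -2.23 ± 0.36, limma adjusted p = 0.0196) and Cd3e 2.02-fold (-1.02 ± 0.18, 0.0196). Cd8a was at least 1.71-fold lower (-0.94 ± 0.12, limma adjusted p = 0.00426), and Cd8b1 differed by -0.69 ± 0.13 (0.0247). Cd8b1 passed background on 2 of 3 p53 arrays and not on replicate 2, so no bound is given for its fold. The bounds for Cd3g and Cd8a include p53 replicate 2, the highest p53 array for both, and were not computed without it. These bounds do not cover the spread between arrays. Their log2 sizes were 1.68 and 0.77, while the 95% intervals of the measured differences reached -1.48 and -0.69. None of the 4 genes overlapped. Cd3d (-0.40 ± 0.10, adjusted p = 0.0515) and Cd5 (-0.33 ± 0.09, 0.0719) did not overlap either but missed the threshold. On leaving out p53 replicate 2, Cd3d differed by -0.31 (limma adjusted p = 0.237) and Cd5 by -0.37 (0.158). Without p53 replicate 2 the calls on Cd3g (-1.51, adjusted p = 0.0109) and Cd8a (-0.75, 0.00688) were kept, and those on Cd3e (-0.71, 0.067) and Cd8b1 (-0.47, 0.0757) were not. Over all genes, 14 of 19938 were then called lower and 3 higher. With replicate 3 also moved to the non-transplanted Rb/p53 tumours, which left p53 replicate 1 alone, Cd3g differed by -1.15 and Cd8a by -0.69. With the normal and other Rb/p53 arrays left out of the main fit, 0 of the 4 calls was kept. Over all genes only 2 of 19938 were called lower and 0 higher in that fit. The transplants share their arrays across the comparisons above, so the comparisons are not independent of each other.

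The non-transplanted Rb/p53 tumours and the p53 tumours differed in 0 of 9 genes by limma, with 3 at an unadjusted p below 0.05. At the adjusted threshold 0% of all genes were called lower and 0% higher. Cd8a differed by -0.71 ± 0.16 (adjusted p = 0.149) and Cd8b1 by -0.57 ± 0.17 (0.226), both without overlap. Cd3g differed by -1.01 ± 0.47 (0.308), with overlap. Without p53 replicate 2 the differences were -0.52 for Cd8a, -0.34 for Cd8b1 and -0.28 for Cd3g.

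Other genes of the receptor pathway were read from a list of signalling and surface molecules, of which 22 were measured. In transplants against normal tissue 8 of the 22 were lower and 2 higher, beside 12.3% and 12.7% of all genes. The list median was -0.15, beside 0.04 over all genes. For the other lists, the all-gene shares given above for the same comparison are the ones to set beside a count. Gimap3 and Gimap5, GTPase genes of lymphocytes, were both lower (-1.07 ± 0.19 and -0.98 ± 0.20, limma adjusted p = 4.78e-04 and 0.00169). Prkcq, the gene of the theta protein kinase C downstream of the receptor, was lower as well (-0.98 ± 0.11, adjusted p = 5.36e-06), and so was Cd2, an adhesion receptor gene (-0.81 ± 0.12, 9.22e-05). The calls on these 4 genes held in every alternative. Gimap3 and Gimap5 were above background on 0 of 7 transplants, and Prkcq and Cd2 on 1 of 7 each. On the normal arrays Gimap3 passed on 3 of 5, Gimap5 on 4 of 5, and Prkcq and Cd2 on all 5. Prkcq also passed on 0 of 2 other Rb/p53 arrays and 0 of 3 p53 arrays, so its differences are read from signals close to background. The 2 that were higher, the adaptor gene Fyb (0.95 ± 0.29) and Slamf6 (0.93 ± 0.33), are expressed beyond T cells, and the Slamf6 call was lost in 15 of 22 alternatives. Which cells the lower and the higher genes of the list were read from was not tested.

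The same list had 0 higher and 6 lower members in non-transplanted Rb/p53 tumours against normal tissue, beside 5.27% and 8.0% of all genes. Its median was -0.23, and Prkcq was again lower (-1.01 ± 0.15, limma adjusted p = 3.93e-04). In p53 tumours 3 were higher (Slamf6, Rasgrp1 and Fyb) and 3 lower (Gimap5, Prkcq and Cd27), beside 7.76% and 12.0% of all genes. Without p53 replicate 2 the list counts were 1 and 2. Prkcq was lower in p53 tumours (-0.59 ± 0.13, adjusted p = 0.00563). In transplants against p53 tumours 2 were lower, Themis (-0.67 ± 0.15, under background on every transplant, p53 and normal array) and Cd2 (-0.66 ± 0.14), and 0 were called without p53 replicate 2. Between the 2 kinds of Rb/p53 tumour, and between non-transplanted Rb/p53 and p53 tumours, 0 were called, with 1 and 6 of 22 at an unadjusted p below 0.05 in limma. No share over all genes was counted at that unadjusted threshold.

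Of 12 measured activation and checkpoint genes, 4 were higher, 1 lower and 7 not called in transplants against normal tissue. Over all genes 12.7% were called higher and 12.3% lower. The list median was 0.02, beside 0.04 over all genes. With MMTV-Cre transplants only, 2 were higher and 1 lower. The other Rb/p53 tumours had 3 higher and 1 lower, and the p53 tumours 6 higher and 0 lower, which became 4 and 0 without p53 replicate 2. Tnfrsf9, encoding the costimulatory receptor 4-1BB, was higher by 3.24 ± 0.37, 2.47 ± 0.53 and 2.96 ± 0.47 in these comparisons (limma adjusted p = 9.11e-06, 0.00592 and 3.05e-04). Havcr2, encoding the receptor TIM-3, which macrophages and dendritic cells also express, was higher by 1.54 ± 0.34, 2.02 ± 0.48 and 1.51 ± 0.42, the last of these not called without p53 replicate 2. Ctla4, an inhibitory receptor gene of activated and regulatory T cells, was higher in p53 tumours by 0.95 ± 0.15 (adjusted p = 3.33e-04) and differed by -0.03 ± 0.12 in transplants; its level was under background on every transplant, p53 and normal array. Transplants were lower than p53 tumours in Ctla4 (-0.98 ± 0.14, adjusted p = 0.0140) and Icos (-0.75 ± 0.14, 0.0279), the latter not without p53 replicate 2.

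Among T cell transcription factor genes, 10 were measured and 2 were lower and 1 higher in transplants against normal tissue, beside 12.3% lower and 12.7% higher over all genes. Ikzf3 (-0.51 ± 0.11) and Tox (-0.45 ± 0.14, a call lost in 3 of 22 alternatives) were lower and Runx3, also active in other leukocytes and in epithelium, was higher by 1.25 ± 0.29 (limma adjusted p = 0.00443). The other Rb/p53 tumours had 2 lower and 0 higher, and the p53 tumours 1 higher (Runx3, 1.52 ± 0.36) and 1 lower, Gata3 (-2.89 ± 0.44), which is also a luminal epithelial factor; without p53 replicate 2 these counts were 1 and 2. Of 4 naive T cell homing genes 1 was lower in transplants (Klf2) and 1 in p53 tumours (S1pr1), and the S1pr1 call was lost without p53 replicate 2. Genes of the receptor's own constant regions were not analysed here.

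Markers of other leukocytes were read on the same arrays. Of 12 natural killer cell markers 4 were higher and 0 lower in transplants against normal tissue, beside 12.7% of all genes called higher, with a list median of 0.24. With MMTV-Cre transplants only, 3 were higher and the median was 0.04. Gzmb, a cytotoxic granule gene shared with T cells, was higher by 1.60 ± 0.41. The receptor genes Klri2 (1.13 ± 0.25) and Klra8 (1.06 ± 0.26) were also called, but Klri2 was above background on 0 of the 17 arrays and Klra8 on 2 of 7 transplants and 0 of 5 normal arrays. Ncr1, the defining marker of the list, differed by 0.13 ± 0.38 (limma adjusted p = 0.873). The mean of the 12 natural killer markers ran from 6.49 to 7.93 in transplants, stood at 6.42 and 6.41 in the other Rb/p53 tumours, and ran from 6.04 to 7.06 in p53 tumours and from 6.42 to 6.87 in normal tissue. Transplant replicates 1, 6 and 7 had the 3 highest means of all arrays, and replicate 7, at 7.93, also had the highest Cd4. The part of natural killer cells in the CD3 and Cd4 values was not tested.

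Of 10 pan-leukocyte genes 3 were higher and 0 lower in transplants, beside the same 12.7%, and 1 was higher under cyclic loess and 1 with MMTV-Cre transplants only. In p53 tumours 7 were higher, and 3 without p53 replicate 2. Among those higher in transplants were Cd53 (1.02 ± 0.23) and Cd52 (1.23 ± 0.43, a call lost in 15 of 22 alternatives), and Ptprc, the gene of CD45, differed by 0.44 ± 0.26. Their mean ran from 9.44 to 11.03 in transplants, 9.88 to 10.44 in the other Rb/p53 tumours, 10.09 to 11.58 in p53 tumours and 9.54 to 9.90 in normal tissue. Of 11 macrophage and dendritic markers 5 were higher and 1 lower in transplants, 0 and 0 in the other Rb/p53 tumours (3 at an unadjusted p below 0.05 in limma) and 8 and 0 in p53 tumours. The p53 count was 5 without p53 replicate 2 and 0 with replicate 2 dropped and replicate 3 moved to the other Rb/p53 tumours. The list means were 9.45 to 10.62, 9.75 to 10.14, 10.13 to 11.15 and, in normal tissue, 9.25 to 9.72. Of 10 B cell markers 4 were lower and 1 higher in transplants, beside 12.3% and 12.7% of all genes. The list means were 6.64 to 6.97 in transplants against 7.08 to 7.34 in normal tissue. Bank1, a B cell adaptor gene, was lower (-1.26 ± 0.37), as was Cd79a, a chain of the B cell receptor (-0.70 ± 0.10), though Cd79a and Ms4a1 were under background on every transplant, p53 and normal array. The lymph node genes Cxcl13 (-2.56 ± 0.81) and Madcam1 (-0.92 ± 0.11) were lower in transplants, as 2 of 5 measured on that list, and the Cxcl13 call was lost in 7 of 22 alternatives. Madcam1 was also lower in the other Rb/p53 tumours (-0.95 ± 0.16) and p53 tumours (-0.84 ± 0.14), and the part of lymph node tissue in the normal samples' CD3 level was not tested.

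**Figure D3:**
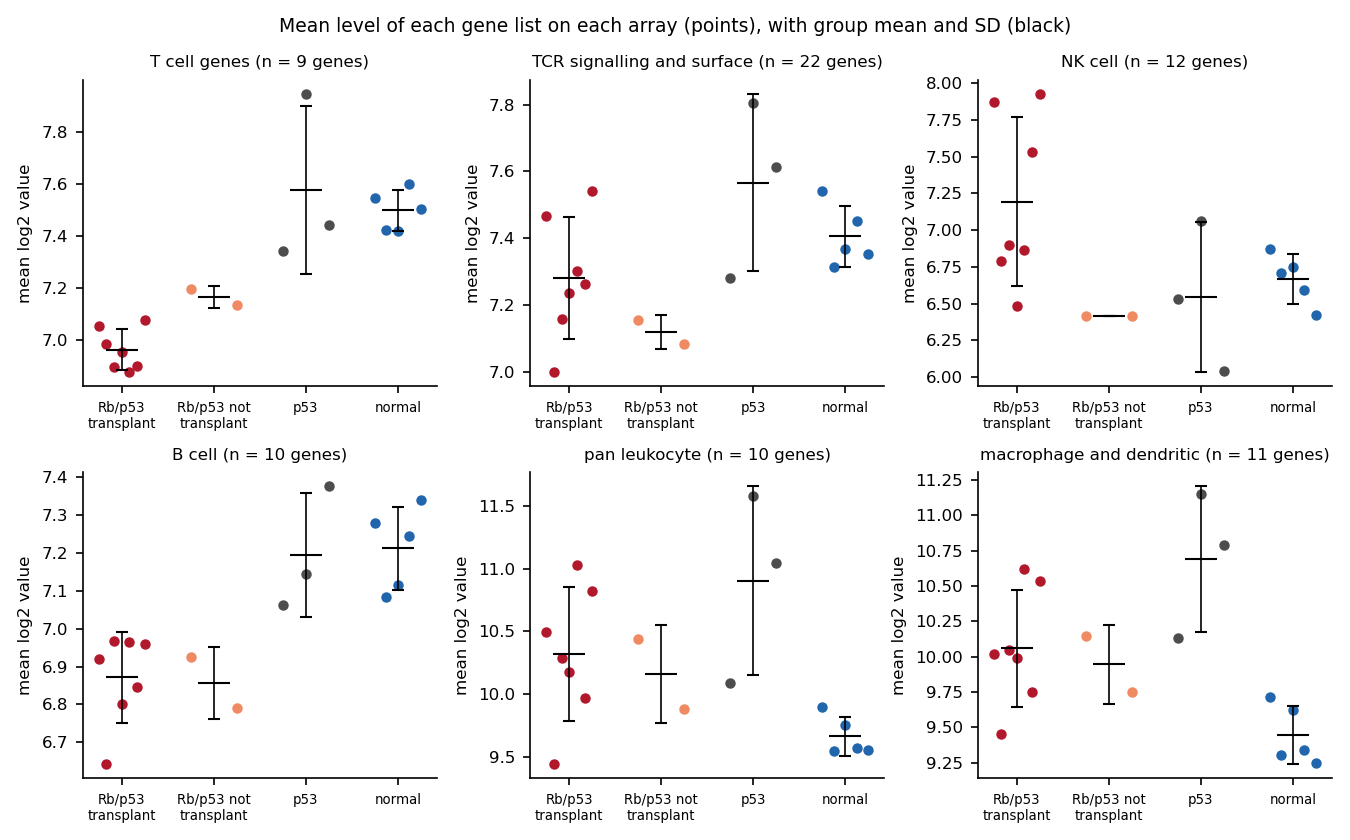
Mean log2 value of each gene list (vertical axis, a separate scale per panel) on each array in the 4 groups, with the group mean and SD in black. The T cell genes are lowest in transplants (6.87 to 7.07), where natural killer markers reach 7.93, and pan-leukocyte markers run from 9.44 to 11.03.

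Genes with the most similar course to the CD3 genes were sought over the 17 arrays. The profile was the mean of Cd3d, Cd3e and Cd3g, centred on its own mean, and likeness was the root mean square difference in log2 units from each other gene's centred profile, with the 9 T cell genes left out. The 8 nearest were Scn2b (0.25), Pde2a (0.28), Atp2a3 and Arhgap26 (both 0.33), Spryd7 (0.34) and Sbf2, Man2a2 and Zfp318 (each 0.35). Scn2b averaged 7.29 in normal tissue, 7.38 in p53 tumours, 6.85 in non-transplanted Rb/p53 tumours and 6.50 in transplants, the same order as Cd3d, in which p53 tumours came first. Of the 8 genes 8 were found again after a further quantile normalisation and 6 after cyclic loess.

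Scn2b, which encodes a sodium channel subunit, lies near the CD3 genes on the chromosome. The other neighbours were looked at after this was seen. Along the chromosome the measured genes ran Ube4a, Cd3g, Cd3d, Cd3e, Mpzl2, Mpzl3, Jaml, Scn2b and Scn4b. Since Scn2b was picked for its course on these arrays, its differences from normal tissue, -0.79 in transplants and 0.09 in p53 tumours, are a description with no test, and it was above background on 0 of 7 transplants. Ube4a, on the other side of Cd3g, was lower (-0.29 ± 0.10, limma adjusted p = 0.0429), a call lost in 10 of 22 alternatives. Mpzl2, a junction protein gene next to Cd3e, was lower in all 3 tumour groups (-2.49 ± 0.57, -2.76 ± 0.82 and -3.73 ± 0.72). In the p53 tumours Cd3e differed by -0.05 ± 0.19, and by -0.36 without p53 replicate 2. The Mpzl2 call in the 2 non-transplanted tumours was lost in 5 of 17 alternatives. Jaml, the gene of an adhesion molecule of leukocytes, was higher in p53 tumours by 3.13 ± 0.64 (adjusted p = 0.00253) and differed by 0.57 ± 0.51 in transplants, the p53 call being lost with replicate 2 dropped and replicate 3 moved. Mpzl3 and Scn4b passed the test in no comparison with normal tissue.

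**Figure D4:**
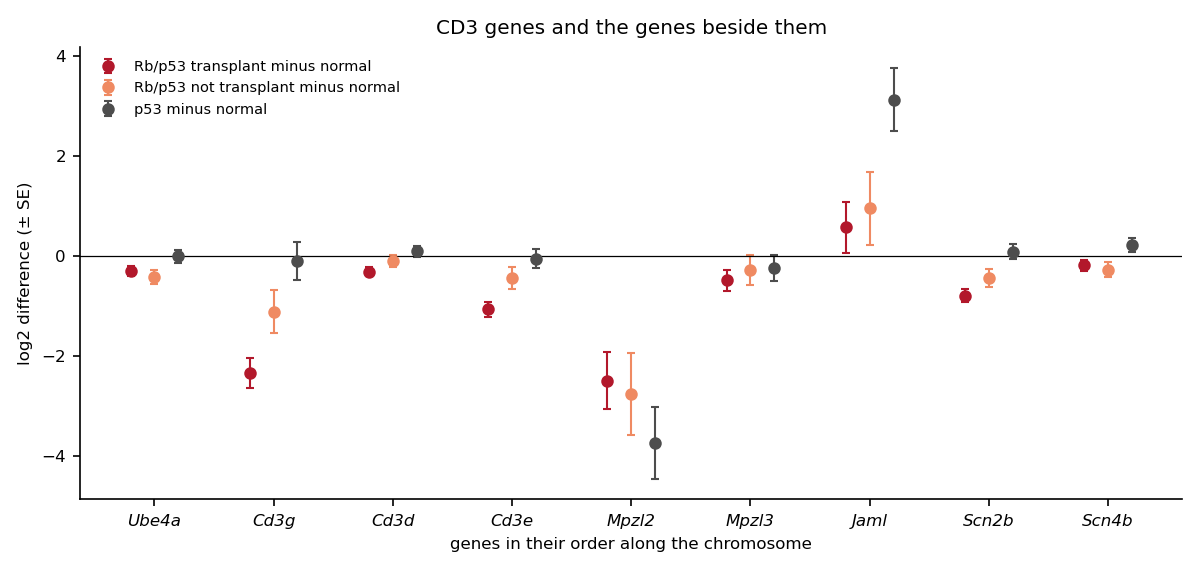
Log2 difference from normal tissue (vertical axis, bars ± SE) of the 3 CD3 genes and the measured genes beside them, placed in order along the chromosome (horizontal axis, order only), for each tumour group. Cd3g, Cd3e and Scn2b lie below 0 in transplants (-2.33, -1.07 and -0.79), while Mpzl2 lies below 0 in all 3 tumour groups and Jaml is at 3.13 in p53 tumours.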

How the data were processed

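The deposited table holds log2 values of 35556 probe sets, made by the authors with RMA in Partek 5.6, per the submitters' processing notes; for other settings and the build, not given in the sources used here, nothing was assumed. A single symbol was attached to 21789 probe sets, several to 1621 and none to 12146. Where a symbol had several probe sets the one with the highest mean was kept, leaving 19938 genes; each measured T cell gene had 1. The 10 genes, the other lists and the tests were chosen with earlier results of these data known.

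All 17 arrays were fitted as 4 groups in R 4.3.3 with limma 3.58.1 (lmFit, eBayes, two-sided, no filter), for 6 comparisons, with Benjamini-Hochberg adjustment over all genes and a threshold of 0.05. The script was tested on simulated data. Genes named outside the T cell genes were up to 3 called members per list with the largest differences, the 8 nearest profiles, and Rb1, Ptprc, Adipoq and Ncr1. Genes also named in further comparisons, uncalled members and the CD3 neighbours were chosen after their values were seen. Alternatives were a trended robust prior, array weights, a filter at the 25th percentile of gene means, renewed quantile or cyclic loess normalisation, averaged probe sets, only the arrays compared, MMTV-Cre transplants only, p53 replicate 3 moved to the non-transplanted Rb/p53 tumours, a log2 difference of at least 1, and each array left out. Dropping p53 replicate 2 while moving replicate 3 was added after seeing the data. The number of arrays limits the precision.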

Additional observations from a re-analysis of the deposited data

Results flagged for a closer look

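Of 18 sets of values (9 genes in the 2 groups of 4 to 10 arrays), 2 held an array far from the others of its group by Dixon's test, which chance does in about 1 in 20 groups. Cd3d on normal replicate 4 was 6.15, with the other 4 normal arrays at 6.33 to 6.39, a gap of 0.764 of the range against a critical value of 0.71. Cd5 on transplant replicate 1 was 7.51, with the other 6 transplants at 7.33 to 7.38, a gap of 0.696 of the range against 0.568. Both genes were among the 5 called lower in transplants. Neither array was left out of any value reported for all arrays.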

How the results depend on the processing

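The number of genes called changed with the setting by more than 1.5 times as follows. Transplants against normal tissue went from 5 to 2 with a log2 difference of at least 1 and to 3 with quantile normalisation again or MMTV-Cre transplants only. Non-transplanted Rb/p53 tumours against normal tissue went from 0 to 1 with array weights, and to 2 with only the arrays compared or with p53 replicate 2 dropped and replicate 3 moved. p53 tumours against normal tissue went from 2 to 0 with the log2 minimum of 1, and to 1 under cyclic loess, only the arrays compared, MMTV-Cre transplants only, or the dropped and moved p53 arrays (1 lower, Cd3g at -1.18). Transplants against other Rb/p53 tumours went from 0 to 2 with those arrays dropped and moved (Cd3g and Cd3e). Transplants against p53 tumours went from 4 to 2 with the log2 minimum, 0 with only the arrays compared and 1 with the arrays dropped and moved. Non-transplanted Rb/p53 against p53 tumours went from 0 to 1 with replicate 3 moved (Cd8b1 at -0.69). Leaving out single arrays gave 3 to 4, 0 to 0, 1 to 2, 0 to 0, 2 to 5 and 0 to 2 calls in the order above. Calls over all genes changed between settings as well. In transplants against p53 tumours with only the arrays compared, 2 of 19938 genes were called lower and 0 higher. The causes were not tested.

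Of 987 gene and setting values, 876 kept direction and side of the threshold, 47 lost a call, 22 gained one and 42 changed sign. No difference that changed sign had been called. Cd4 in transplants against normal tissue was -0.0795 with array weights and -0.20 with MMTV-Cre transplants only. Against normal tissue Cd8a in non-transplanted Rb/p53 tumours was 0.13 with replicate 3 moved. In p53 tumours against normal tissue Cd3d was -0.0507 and -0.081 after quantile and loess, Cd3e 0.0484 after quantile and 0.0078 with replicate 3 moved, and Cd3g 0.0877 with replicate 3 moved. There Cd247 was -0.0115 with the arrays dropped and moved, and Cd28 was -0.0723 with array weights, -0.0205 after quantile, -0.0709 after loess and -0.0727 dropped and moved. Cd247 between the kinds of Rb/p53 tumour was -0.0196 and -0.0353 after quantile and loess and -0.0132 with replicate 3 moved, with or without replicate 2. Against p53 tumours, the non-transplanted Rb/p53 tumours had Cd3e at 0.19 and Cd3g at 0.28 with the arrays dropped and moved, and Cd4 at 0.12 with replicate 3 moved.

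On leaving out single arrays the sign-changing values ranged, in transplants against normal tissue, from -0.24 to 0.16 for Cd4. In non-transplanted Rb/p53 tumours they ranged from -0.22 to 0.0324 for Cd247 and -0.31 to 0.0031 for Cd5. In p53 tumours the ranges were -9e-04 to 0.18 for Cd3d, -0.36 to 0.19 for Cd3e, -0.83 to 0.44 for Cd3g, -0.0154 to 0.23 for Cd247 and -0.0889 to 0.15 for Cd28. Between the kinds of Rb/p53 tumour they were -0.11 to 0.14 for Cd247 and -0.23 to 0.0768 for Cd5, and for Cd4 against p53 tumours -0.30 to 0.0311.

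Cd3d and Cd28 fell under the filter at the 25th percentile. Signal near background limits Cd3d, Cd247, Cd8b1 and Cd28 in all groups, and Cd3g in transplants. It also limits Cd8a in transplants, non-transplanted Rb/p53 tumours and normal tissue. No paired analysis was possible because the labels carry no numbers that link samples across groups. Where 1 array remained in a group, it was taken to vary like the others.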
